A study of Homo sapiens with 16 samples.

Results

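Ribosome biogenesis and RNA polymerase I were followed through 59 genes, chosen by name for their roles and found by their symbol in the tables of gene-body and promoter-proximal counts. All 59 were among the 10304 listed transcripts. All 59 passed the filter on low counts in gene bodies, as did every listed transcript. In promoter-proximal regions 58 passed it and TSR1 did not, where 9980 of all listed transcripts passed. The samples came from Kasumi-1, a human acute myeloid leukaemia cell line with the RUNX1-RUNX1T1 fusion, in which both alleles of SMARCA5 had been tagged with FKBP12F36V. SMARCA5 is the ATPase of ISWI chromatin remodellers, and dTAG-47 directs proteins with this tag to degradation. Nascent RNA was profiled by PRO-seq, a nuclear run-on that records where engaged RNA polymerases stand. Tagged cells gave 5 untreated libraries (0 h), and exposure to 500 nM dTAG-47 gave 3 libraries at 2 h, 4 at 6 h and 2 at 24 h. Every library described here carried the tag on both alleles, untreated ones included, and 2 samples of the parental line were not analysed here. Whether the tagged line is 1 clone is not given in the sources used here.

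Ribosomes are built in the nucleolus. RNA polymerase I transcribes the rRNA precursor there, the small subunit processome folds and cuts its 18S part, other factors assemble the large subunit, and box C/D and H/ACA snoRNPs modify the rRNA. The genes of these factors are themselves transcribed by RNA polymerase II, so the values below are polymerase on those genes and not the transcription of rRNA. Many of them are known as MYC targets, and their proteins are abundant in proliferating leukaemia cells.

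Column names divided the libraries into 3 runs, by a code whose meaning is not given in the sources used here. Run 1 held 2 untreated libraries and 1 at 2 h, run 2 held 2 libraries at each time, and run 3 held 1 untreated library and 2 at 6 h. Total counts per library were between 11182894 and 34209362 in gene bodies and between 1667950 and 7171601 in promoter-proximal regions. The 59 genes held 0.486% to 0.636% of the gene-body counts and 0.891% to 1.31% of the promoter-proximal ones. In gene bodies, Spearman's rho across genes between libraries of the same time was 0.967 to 0.993 for 14 pairs from different runs and 0.992 to 0.998 for 6 pairs from 1 run. The fit therefore carried a term for the run, and results within runs are given beside it. Of 9 marker genes of Kasumi-1 and myeloid progenitor cells 8 were listed, RUNX1T1 not, while 0 of 6 lymphoid and 0 of 6 erythroid or megakaryocyte markers were listed. EPCAM, an epithelial marker, was listed at 17.0 to 33.6 CPM (counts scaled to the size of the library) and the other 4 epithelial or fibroblast markers were not. The tag acts on the protein, and nascent SMARCA5 itself was not called at any time (log2 fold change -0.27 at 2 h with adjusted p = 0.0779 in edgeR, -0.11 at 6 h and -0.18 at 24 h).

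In untreated cells the 59 genes were transcribed above the level of most listed transcripts. Their gene bodies had a median of 3.29 CPM per kb, against 1.94 CPM per kb for all transcripts, and 54 of the 59 lay above that median of all. NOP56, a core protein of box C/D snoRNPs, had the highest level at 15.4 ± 0.865 CPM per kb (SD, n = 5). NPM1, the nucleolar chaperone nucleophosmin, followed at 13.1 ± 2.29 CPM per kb, a gap to NOP56 of about its own SD. NOP58, DDX21 and NCL came next at 10.1 ± 1.71, 10.04 ± 1.76 and 9.44 ± 1.40 CPM per kb, and these neighbours did not differ beyond their spread. NOC4L had the lowest level, 0.997 ± 0.165 CPM per kb. On hg19 coordinates as listed, NOLC1 spans chr10:103911933-103923627, DDX21 chr10:70715892-70744279, POLR1A chr2:86253451-86333278, WDR36 chr5:110427870-110466200, NOP58 chr2:203130515-203168384 and DDX10 chr11:108535816-108811648. GNL3, NOP14, NIP7, TSR1 and MYBBP1A overlap another listed transcript (GLT8D1, NOP14-AS1, COG8, SRR and SPNS2), and since the strand of counting is not given in the sources used here, their reads cannot be told apart from those of the neighbour.

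Promoter sequences from RefSeq (GRCh38.p14, 250 bases before to 50 bases after the start) were found for 48 of the 59 genes. The letters CACGTG, the E-box that MYC and MAX are known to bind, were searched. CACGTG is its own reverse complement, so 1 strand covers both. It was present in 18 of the 48 promoters (37.5%), against 10.9% of the 7395 listed genes with a promoter and 7.43% of all 27305 promoters. Shown first are those of the members with the lowest gene-body log2 fold change at 6 h, DDX21 (chr10:68955920-68956219, strand +) and WDR3 (chr1:117929489-117929788, strand +), then those with the highest, NHP2 (chr5:178153836-178154135, strand -) and UBTF (chr17:44220833-44221132, strand -). UTP18 (chr17:51260296-51260595, strand +) is added, chosen after its values were seen, because its promoter-proximal reads fell. NOL11, the other gene whose promoter-proximal reads fell at 2 h, has 0 matches to CACGTG and is not printed. A link between CACGTG and those reads was not tested. Capitals mark CACGTG.
DDX21: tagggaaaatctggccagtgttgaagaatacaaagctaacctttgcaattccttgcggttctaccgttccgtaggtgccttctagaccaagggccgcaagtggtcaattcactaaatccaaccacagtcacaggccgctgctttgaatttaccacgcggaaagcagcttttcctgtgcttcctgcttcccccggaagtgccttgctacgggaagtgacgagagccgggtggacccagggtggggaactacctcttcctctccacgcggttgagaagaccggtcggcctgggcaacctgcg
WDR3: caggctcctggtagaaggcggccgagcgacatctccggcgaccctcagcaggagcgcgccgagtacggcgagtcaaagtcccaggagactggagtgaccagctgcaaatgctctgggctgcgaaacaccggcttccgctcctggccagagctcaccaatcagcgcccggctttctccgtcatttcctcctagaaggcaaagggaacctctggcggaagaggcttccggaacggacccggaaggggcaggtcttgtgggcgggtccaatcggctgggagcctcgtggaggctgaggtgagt
NHP2: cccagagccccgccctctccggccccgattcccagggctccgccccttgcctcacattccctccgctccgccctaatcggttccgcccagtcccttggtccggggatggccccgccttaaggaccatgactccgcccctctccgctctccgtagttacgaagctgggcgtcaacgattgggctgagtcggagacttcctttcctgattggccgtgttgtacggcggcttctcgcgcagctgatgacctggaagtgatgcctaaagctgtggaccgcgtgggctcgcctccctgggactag
UBTF: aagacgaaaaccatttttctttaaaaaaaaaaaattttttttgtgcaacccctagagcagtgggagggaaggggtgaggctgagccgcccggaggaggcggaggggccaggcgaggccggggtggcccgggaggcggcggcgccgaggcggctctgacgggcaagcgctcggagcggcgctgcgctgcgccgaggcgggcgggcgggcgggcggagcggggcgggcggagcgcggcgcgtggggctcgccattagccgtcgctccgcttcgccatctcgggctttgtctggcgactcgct
UTP18: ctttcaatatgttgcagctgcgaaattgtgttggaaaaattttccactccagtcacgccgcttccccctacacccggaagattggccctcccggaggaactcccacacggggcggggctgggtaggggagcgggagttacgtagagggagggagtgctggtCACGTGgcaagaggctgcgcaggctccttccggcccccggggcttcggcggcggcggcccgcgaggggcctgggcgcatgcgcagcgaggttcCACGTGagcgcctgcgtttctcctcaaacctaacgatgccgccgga
None of the first 4 holds CACGTG, and UTP18 holds it 2 times, starting at bases 162 and 255. At 6 h 7 of the 18 genes with CACGTG fell in the gene body, with a median log2 fold change of -0.23. Among the 30 without it 17 fell, with a median of -0.30. Over all 10304 transcripts 13.4% were called lower at 6 h (adjusted p under 0.05, edgeR), a share not split by CACGTG. A link between CACGTG and the gene-body change was not tested. The CACGTG matches are counts of letters in 1 window per gene and are given as a description.

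In the fit over all 14 libraries, gene-body calls of the 59 ribosome biogenesis genes after dTAG-47 were all lower, except for NHP2 at 2 h. These gene-body changes were smaller than a log2 fold change of 1. At 2 h 19 of the 59 genes fell in the gene body and 1 rose (adjusted p under 0.05, edgeR), where 18.9% of all 10304 transcripts were called lower and 19.7% higher. At 6 h 32 fell (54.2%) and 0 rose, where 13.4% of all transcripts were called lower and 13.5% higher. At 24 h 18 fell (30.5%) and 0 rose, where 9.08% were called lower and 10.8% higher. The median log2 fold change of the 59 was -0.09 at 2 h, -0.25 at 6 h and -0.20 at 24 h, beside 0.01 at each time over all transcripts. At 6 h the values lay between -0.61 and 0.14, and 56 of the 59 were below 0. At an unadjusted p under 0.05, too, 0 genes were higher at 6 h and 0 at 24 h. Of all 10304 transcripts 4003 and 3560 passed that threshold in either direction at these times. DESeq2 called 0 of the 59 higher at both times. In such bulk libraries, less transcription in every cell and fewer cells that transcribe a gene cannot be told apart. The 3 comparisons share the untreated libraries and are given side by side, not as independent evidence.

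**Figure D1:**
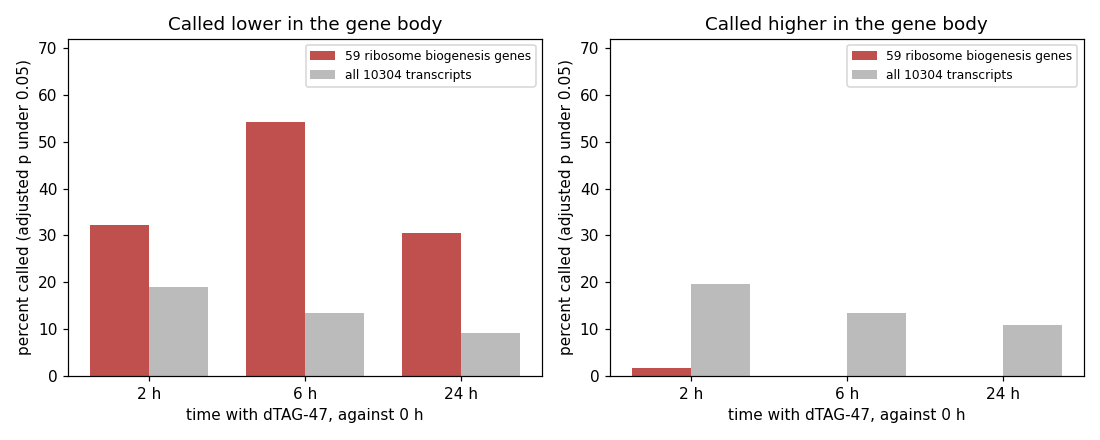
Percent of the 59 ribosome biogenesis genes (red) and of all 10304 transcripts (grey) called lower (left) and higher (right) in gene bodies at 2, 6 and 24 h against 0 h, at an adjusted p under 0.05. At 6 h the red bar for lower stands at 54.2% beside 13.4% in grey, and no gene of the group was called higher.

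Of the 32 genes called at 6 h, 20 kept their call in each of 14 fits that left out 1 library, and the count of genes called lower was 21 without 6 h B of run 2. Of the 20 genes called at 2 h 8 kept their call in every such fit, and the number lower was 10 without the 2 h library of run 1. Of the 18 genes called at 24 h only DDX10 and NOLC1 kept it in all 14 fits. Without 24 h A 4 remained (DDX10, DDX18, NOLC1 and POLR1A) and without 24 h B 4 (DDX10, DDX21, NOLC1 and WDR36). Without the run term 10, 33 and 14 genes were called lower at 2, 6 and 24 h. Shares of all transcripts are not given here for that fit or for those without 1 library. Such counts show only how the calls moved. With run 2 alone 18, 37 and 31 were called lower, where 20%, 22% and 21.7% of 10303 transcripts were. In that fit 4 genes were called higher at 2 h, and the share of all transcripts called higher is not given here.

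Within each run the median of the 59 genes was below 0 at each treated time. At 2 h the median of the 59 genes, as log2 CPM in the treated minus the untreated libraries of the run, was -0.17 in run 1 (40 of 59 below 0) and -0.05 in run 2 (42 of 59). At 6 h it was -0.28 in run 2 (54 of 59) and -0.23 in run 3 (55 of 59), and at 24 h -0.19 in run 2 (51 of 59). The median over all transcripts was between 0.01 and 0.02 in these 5 contrasts. In 39 genes every 6 h library lay below every untreated library of its own run, where 23.9% of all transcripts did, and in 0 genes above, where 25.3% did. At 2 h 20 genes lay wholly below (21.4% of all) and NHP2 and RRP9 wholly above (22.4%). At 24 h 43 lay below (36.1%) and FBL, NHP2 and NOP56 above (37.2%). The 2 h change itself differed between run 1 and run 2 in 16 genes (run-by-time term in edgeR, adjusted p under 0.05, 28.3% of all transcripts), 13 of them lower in run 1. That is close to the share of all transcripts, and run 1 has 1 library at 2 h, which is assumed to vary like the other groups. The 6 h change differed between run 3 and run 2 in 0 genes (0.437% of all; 1 gene at an unadjusted p under 0.05).

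**Figure D2:**
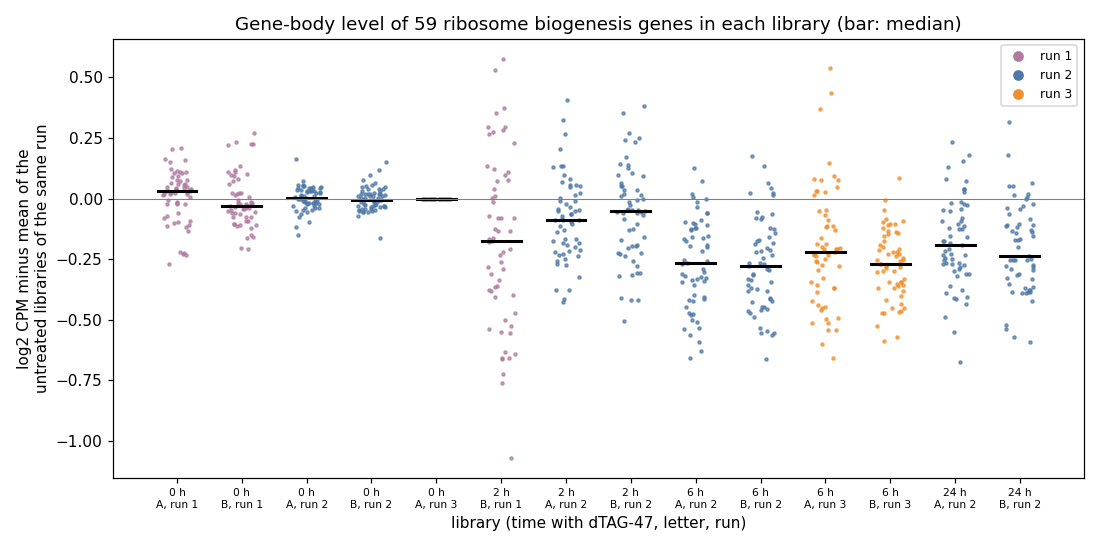
Gene-body log2 CPM of each of the 59 genes (points) minus its mean over the untreated libraries of the same run, in each library by time, letter and run, with the median as a bar. The run 3 untreated library is its own baseline and lies at 0. The bars of the 4 libraries at 6 h lie between -0.28 and -0.22, and the 2 h library of run 1 has the widest scatter.

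The genes of RNA polymerase I fell in 2 of 7 cases at 6 h, where 13.4% of all transcripts were called lower. POLR1A, its largest subunit, had 233, 240.1, 250.3, 236 and 247 CPM at 0 h, 224, 202 and 208 CPM at 2 h, 168, 178, 203 and 194 CPM at 6 h and 189 and 181 CPM at 24 h. All 9 libraries at the 3 treated times lay below all 5 untreated ones. The log2 fold change of the gene was -0.16 ± 0.06 (SE) at 2 h, -0.40 ± 0.06 at 6 h and -0.34 ± 0.07 at 24 h, with adjusted p in edgeR of 0.0394, 0.000353 and 0.00568. The 2 h call was lost when any 1 of 9 libraries was left out (adjusted p 0.0533 to 0.121) and the 24 h call without 24 h B (0.0721). POLR1B, the second largest subunit, had log2 fold changes of -0.34 ± 0.07, -0.44 ± 0.06 and -0.24 ± 0.08, the first 2 called and the last with an adjusted p of 0.0506. POLR1C and POLR1D, which RNA polymerase III shares, were not called, at -0.08 and -0.13 at 6 h, nor was POLR1E, at -0.15. RRN3, which brings the polymerase to the rRNA gene promoter, had -0.18 at 6 h (adjusted p = 0.0727). UBTF, which binds the rRNA genes, had 110.3, 152, 148, 156 and 154 CPM at 0 h, 158, 135 and 162 CPM at 2 h, 136, 138, 209 and 164 CPM at 6 h and 132 and 140.5 CPM at 24 h. Across runs its times overlapped. Library 0 h A of run 1 lay below the other untreated libraries and 6 h A of run 3 was the highest of all. Within runs, the 6 h and 24 h libraries of run 2 lay below its untreated ones, and the 6 h libraries of run 3 above theirs. The 2 h library of run 1 lay above its untreated ones, and those of run 2 on both sides. In the model over all runs the log2 fold change was 0.04 ± 0.12 at 6 h (adjusted p = 0.817 in edgeR). The 6 h change in run 3 minus that in run 2 was 0.42 ± 0.22 (adjusted p = 0.497 in edgeR).

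The 25 genes of the small subunit processome and 40S assembly had 10 genes lower at 2 h, 17 at 6 h and 10 at 24 h and 0 higher at any time. Of all transcripts 18.9%, 13.4% and 9.08% were called lower at these times and 19.7%, 13.5% and 10.8% higher. Their median log2 fold change was -0.12, -0.28 and -0.26, and at 6 h all 25 values were below 0. Of the 5 genes followed here of the UTP-A complex, which binds the start of the rRNA precursor, 4 fell at 6 h. They are HEATR1 (-0.38), NOL11 (-0.33), WDR43 (-0.49) and WDR75 (-0.42), while UTP15 had -0.18 (adjusted p = 0.272). The NOL11 call was lost when any 1 of 3 libraries was left out (adjusted p 0.066 to 0.125).

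The 3 genes followed here of the UTP-B complex, the next to join the precursor, all fell at 6 h. Of their list of 25 genes 17 fell at that time, these 3 included, where 13.4% of all transcripts were called lower. WDR36 had 151, 121, 102, 104 and 87.4 CPM at 0 h, 64.3, 77.4 and 72.7 CPM at 2 h, 77.9, 70.5, 62.04 and 68.2 CPM at 6 h and 64.6 and 69.4 CPM at 24 h. The 9 treated libraries lay below all 5 untreated ones, and the untreated libraries of run 1 were the highest. Relative to 0 h, its log2 change was -0.68 ± 0.12 at 2 h, -0.53 ± 0.12 at 6 h and -0.72 ± 0.15 at 24 h (adjusted p = 0.00101, 0.00529 and 0.00473), the 24 h call being lost without 24 h A (0.0662). WDR3 had 90.2, 67.9, 79.7, 87.04 and 77.95 CPM at 0 h, 66.6, 64.02 and 62.4 CPM at 2 h, 52.7, 52.6, 49.4 and 56.3 CPM at 6 h and 56.9 and 55.2 CPM at 24 h. Each treated library was below each untreated one, and the values at 6 and 24 h were lower than those at 2 h in every library. The fitted log2 fold change was -0.33 ± 0.09, -0.60 ± 0.09 and -0.53 ± 0.11. The 2 h call of WDR3 was lost without library B of run 2 at 2 h (adjusted p = 0.0502) and the 24 h call without 24 h A (0.0575) or B (0.0692). UTP18 had -0.31, -0.33 and -0.25, called at 2 and 6 h, at 2 h not without the 2 h library of run 1 (0.0793).

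DDX10, an RNA helicase of 18S processing, had the smallest adjusted p of this list at 6 h. It had 444, 379, 391, 376 and 362 CPM at 0 h, 315, 348 and 328 CPM at 2 h, 281, 278, 248 and 274 CPM at 6 h and 288 and 294 CPM at 24 h. All treated libraries lay below all untreated ones and the 6 h libraries below those at 2 h. The log2 fold change of the gene was -0.26 ± 0.06, -0.49 ± 0.06 and -0.44 ± 0.08 (adjusted p = 0.00787, 0.000197 and 0.00272), the 2 h call being lost without the 2 h library of run 1 (0.0787). DDX52, another helicase, had -0.37, -0.28 and -0.38, called at all 3 times; its 6 h call did not hold without 0 h A of run 3 (0.0693) or 6 h B of run 2 (0.0561) and its 24 h call without 24 h A (0.0522) or B (0.0882). Of the late factors that ripen the 40S subunit in the cytoplasm, TSR1 (-0.41), LTV1 (-0.37) and NOB1 (-0.32), the nuclease that makes the end of 18S rRNA, fell at 6 h in each of the 14 fits. NAT10, the rRNA acetyltransferase, and MPHOSPH10, of the processome core, were called at -0.22 and -0.24 but lost the call when any 1 of 6 and of 9 libraries was left out. PDCD11, the human RRP5 protein, UTP20 and NOL10 were called at -0.28, -0.25 and -0.20, and lost the call when any 1 of 5, 1 and 2 libraries was left out. NOL6, a processome protein and the member of the list nearest to no change, had 32.7, 30.5, 37.8, 39.97 and 44.8 CPM at 0 h, 47.2, 36.5 and 40.7 CPM at 2 h, 33.9, 33.5, 47.2 and 34.9 CPM at 6 h and 36.5 and 32.2 CPM at 24 h. Across runs each treated time overlapped the untreated libraries. In run 2 the 6 h and 24 h libraries lay below the untreated ones. The 2 h library of run 1 lay above its untreated ones, and the 6 h libraries of run 3 on both sides of theirs. The log2 fold change of NOL6 at 6 h was -0.10 ± 0.13 (adjusted p = 0.584 in edgeR). RRP9, IMP4, NOP14, NOC4L, BYSL and RRP12 were not called either, with values between -0.31 and -0.13.

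**Figure D3:**
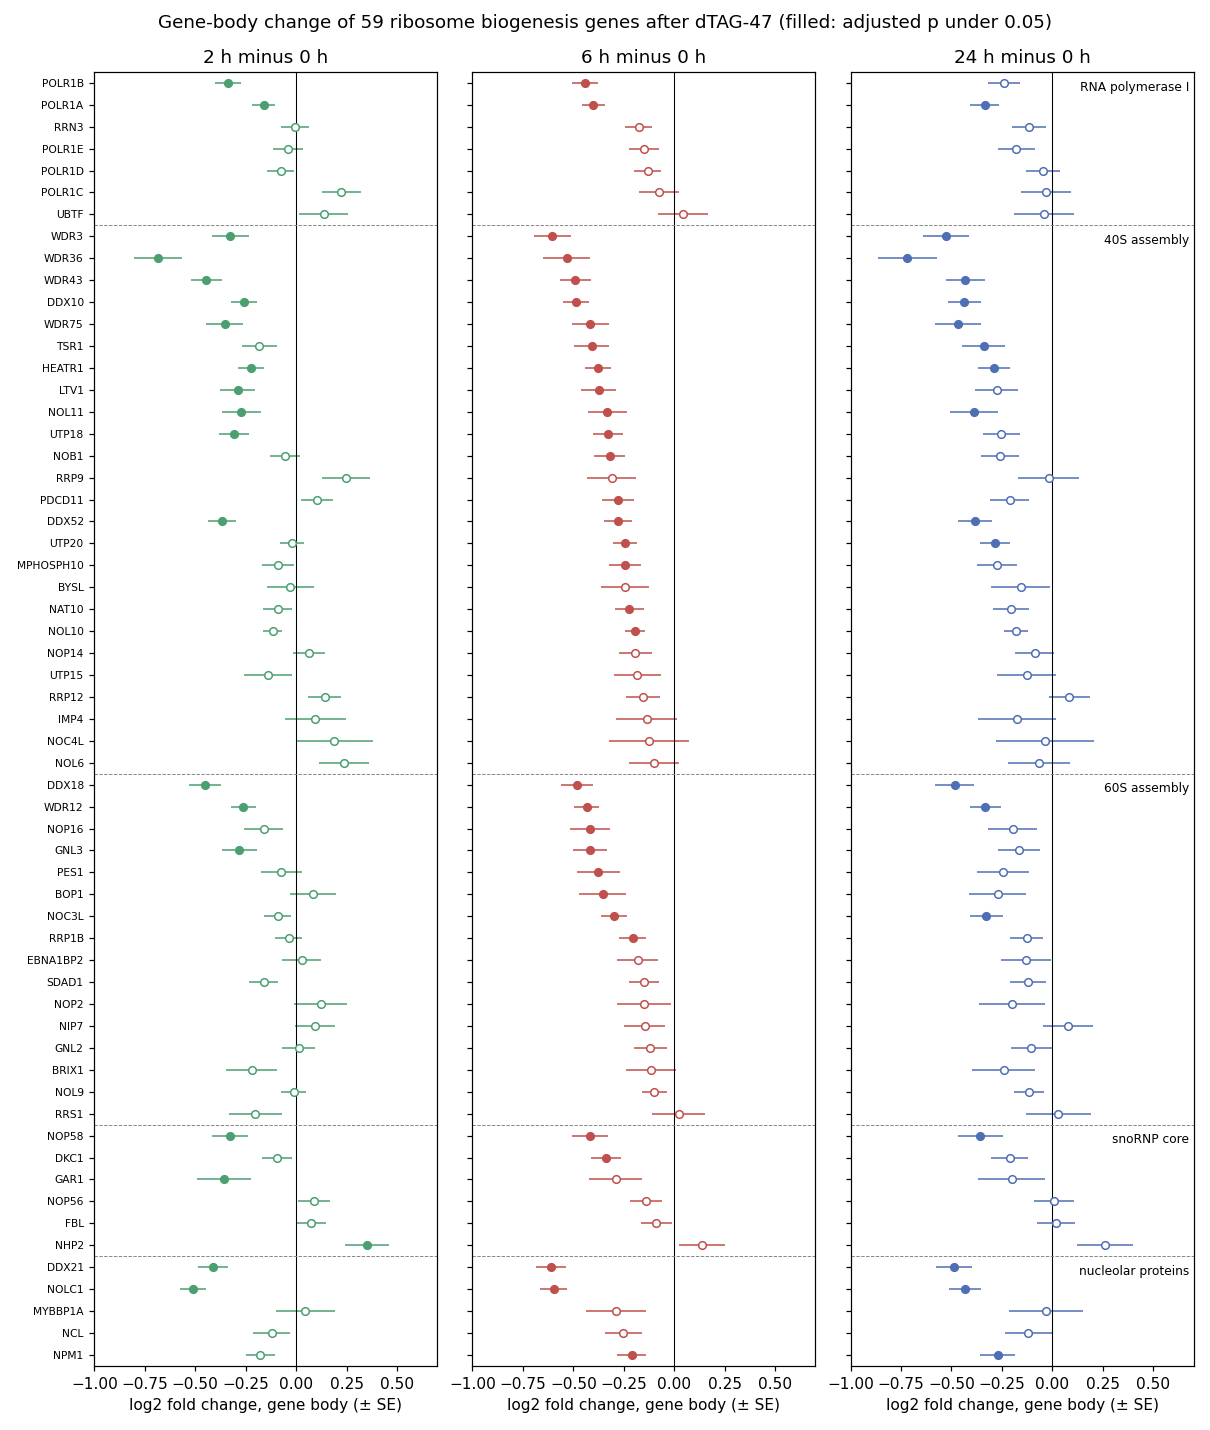
Gene-body log2 fold change (± SE of the model) of each of the 59 genes at 2, 6 and 24 h against 0 h, by role and in the order of the 6 h change. Filled points passed an adjusted p of 0.05. At 6 h 32 points are filled, all below 0, and DDX21 at -0.61 is the lowest.

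Of the 16 genes of 60S assembly 3 fell at 2 h, 8 at 6 h and 3 at 24 h, with 0 higher and medians of -0.08, -0.19 and -0.18. The count at 2 h is close to the 18.9% of all transcripts called lower, where 13.4% were at 6 h and 9.08% at 24 h. PES1, BOP1 and WDR12 form the PeBoW complex, which is needed to process the large-subunit rRNAs, and all 3 were called lower at 6 h. WDR12 had 121, 109, 108, 105 and 112 CPM at 0 h, 94.03, 90.99 and 85.7 CPM at 2 h, 73.4, 79.8, 88.1 and 86.004 CPM at 6 h and 85.4 and 82.04 CPM at 24 h. Every treated library was below every untreated one. In the model the log2 fold change was -0.26 ± 0.06, -0.43 ± 0.06 and -0.33 ± 0.08 (adjusted p = 0.00603, 0.000366 and 0.00994), the 24 h call being lost without 24 h A (0.0628) or B (0.0993). PES1 (-0.38) and BOP1 (-0.36) lost the call without 6 h A of run 2 (adjusted p = 0.0781 and 0.141) and without 6 h B of run 2 (0.0803 and 0.137), and BOP1 also without any 1 of 4 other libraries (0.0522 to 0.0936). In run 3 BOP1 had 95.2 and 73.3 CPM at 6 h, on both sides of the untreated library at 93.2 CPM.

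DDX18, a helicase of 60S assembly, had 82.1, 84.1, 64.8, 70.002 and 56.7 CPM at 0 h, 53.5, 53.8 and 50.7 CPM at 2 h, 48.3, 46.5, 44.3 and 44.6 CPM at 6 h and 50.9 and 46.9 CPM at 24 h. All treated libraries lay below all untreated ones. Relative to 0 h, its log2 change was -0.45 ± 0.08, -0.48 ± 0.08 and -0.48 ± 0.10, called at all 3 times, at 24 h not without 24 h B (adjusted p = 0.0673). GNL3, the GTPase nucleostemin, had -0.42 at 6 h, NOP16 -0.42, NOC3L -0.30 and RRP1B -0.21, all called. NOP16 lost its call without 0 h A of run 3 (0.0512) and RRP1B when any 1 of 8 libraries was left out. The other 8 genes, NOP2, EBNA1BP2, BRIX1, NIP7, SDAD1, GNL2, NOL9 and RRS1, were not called at any time and lay between -0.18 and 0.02 at 6 h. RRS1, the one nearest to no change, had 9.34, 8.84, 8.54, 8.01 and 10.2 CPM at 0 h, 6.83, 7.28 and 8.83 CPM at 2 h, 8.38, 9.36, 11.3 and 9.61 CPM at 6 h and 8.50 and 9.40 CPM at 24 h, and all 4 times overlapped.

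Of the 6 core proteins of box C/D and H/ACA snoRNPs, which guide the methylation and pseudouridylation of rRNA, 2 fell and 1 rose at 2 h, 2 fell at 6 h and 1 at 24 h. Of all transcripts 18.9%, 13.4% and 9.08% were called lower at these times, and 19.7% higher at 2 h. NOP58, of the box C/D particle, had 482, 416, 349.6, 350.4 and 323 CPM at 0 h, 283, 326 and 313 CPM at 2 h, 280.1, 270.5, 249.6 and 257 CPM at 6 h and 289 and 293 CPM at 24 h. The 6 h and 24 h libraries lay below every untreated library, and at 2 h 1 library was above the untreated one of run 3. The fitted log2 fold change was -0.33 ± 0.09, -0.42 ± 0.09 and -0.36 ± 0.11 (adjusted p = 0.0122, 0.00471 and 0.0369). Its 2 h call was lost without the 2 h library of run 1 (0.15) and its 24 h call when any 1 of 5 libraries was left out (0.0503 to 0.19). FBL, the methyltransferase of the same particle, had 36.1, 39.9, 36.03, 36.2 and 32.2 CPM at 0 h, 38.98, 37.4 and 39.8 CPM at 2 h, 33.2, 34.7, 32.5 and 28.9 CPM at 6 h and 37.1 and 36.4 CPM at 24 h. Across runs each treated time overlapped the untreated libraries. In run 2 the 2 h and 24 h libraries lay above the untreated ones and the 6 h libraries below. The treated libraries of runs 1 and 3 did not separate from their untreated ones. The log2 fold change of FBL at 6 h was -0.09 ± 0.08 (adjusted p = 0.415 in edgeR), and NOP56 had -0.14. In the H/ACA particle, DKC1, the pseudouridine synthase, had -0.34 ± 0.08 at 6 h (adjusted p = 0.00577). GAR1 was called at 2 h (-0.36), a call lost when any 1 of 11 libraries was left out. NHP2 was the 1 gene of the 59 called higher in the fit over all libraries, at 2 h, with 0.35 ± 0.11 (adjusted p = 0.0225 in edgeR). That call was lost when any 1 of 4 libraries was left out (0.0511 to 0.0599), and NHP2 was not called at 6 h (0.14) or 24 h (0.26).

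Of the 5 abundant nucleolar proteins 2 fell at 2 h, 3 at 6 h and 3 at 24 h, where 18.9%, 13.4% and 9.08% of all transcripts were called lower. NOLC1, a chaperone of snoRNPs, had the smallest adjusted p of all 59 genes at 6 h. It had 108, 109, 90.05, 86.1 and 69.4 CPM at 0 h, 68.8, 65.5 and 65.9 CPM at 2 h, 58.4, 59.9, 47.6 and 46.7 CPM at 6 h and 66.2 and 67.8 CPM at 24 h. The libraries at all 3 treated times lay below all untreated ones, and those at 6 h below those at 2 and 24 h. The log2 fold change of the gene was -0.51 ± 0.07, -0.60 ± 0.07 and -0.43 ± 0.08 (adjusted p = 0.000151, 4.46e-05 and 0.00286). DDX21, a helicase that binds rRNA and snoRNAs, had 344, 335, 258, 247 and 242 CPM at 0 h, 215, 211 and 204 CPM at 2 h, 163, 171, 172 and 168 CPM at 6 h and 179.7 and 193 CPM at 24 h. All treated libraries lay below all untreated ones, and the 4 values at 6 h were the lowest. In the model the log2 fold change was -0.41 ± 0.07, -0.61 ± 0.07 and -0.49 ± 0.09 (adjusted p = 0.00118, 9.17e-05 and 0.00279), the 24 h call being lost without 24 h A (0.051). NPM1 had 369, 347, 267, 285 and 245 CPM at 0 h, 271, 280.4 and 265 CPM at 2 h, 257, 253, 209 and 206 CPM at 6 h and 234 and 251 CPM at 24 h. Its untreated libraries differed by run, with run 1 highest and run 3 lowest. Across runs the treated libraries overlapped the untreated ones of runs 2 and 3, while within its own run every 6 h and every 24 h library lay below every untreated one. Relative to 0 h, its log2 change was -0.21 ± 0.07 at 6 h and -0.27 ± 0.09 at 24 h, and both calls were lost when any 1 of 10 libraries was left out. NCL (-0.25) and MYBBP1A (-0.29) were not called at 6 h.

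**Figure D4:**
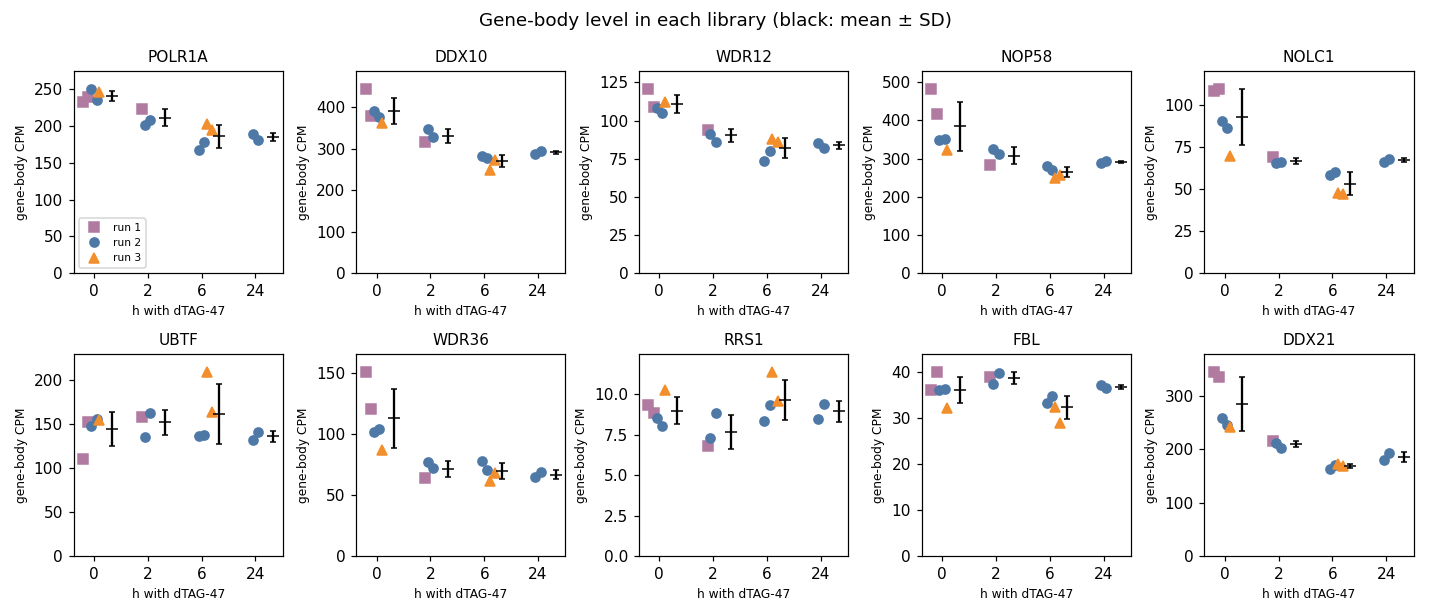
Gene-body CPM in each library (coloured by run) at 0, 2, 6 and 24 h with dTAG-47, with mean ± SD beside the points, for 2 genes from each role. In the upper row the values at 6 h lie below the untreated ones. In the lower row UBTF, RRS1 and FBL overlap with them across runs, while WDR36 and DDX21 do not.

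Between treated times no member was called. At 6 h against 2 h 0 of the 59 passed an adjusted p of 0.05 in edgeR, where 1.58% of all transcripts did in either direction. Their median log2 fold change was -0.17, beside -0.01 over all transcripts. At an unadjusted p under 0.05 there were 22, all lower, where 1787 of 10304 transcripts passed in either direction. At 24 h against 2 h 0 were called (4.08% of all), with a median of -0.09. Unadjusted, 5 passed, where 1857 of 10304 transcripts did. At 24 h against 6 h 0 were called (0.175% of all), with a median of 0.07. Unadjusted, 3 passed, all higher, where 788 of 10304 transcripts did in either direction. DESeq2 called 4, 1 and 0 members in these 3 comparisons, and its shares of all transcripts are not given here. In run 2 alone, which holds 2 libraries at each time, 24 genes were lower at 6 h than at 2 h and 0 higher, where 8.26% of all transcripts were called lower. In the same run 11 were lower at 24 h than at 2 h, where 9.73% were, and 1 was higher at 24 h than at 6 h, where 6.2% were.

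In promoter-proximal regions, where polymerase pauses after initiation, few changes passed the test. At 2 h 2 of 58 genes fell, NOL11 and UTP18, and 0 rose, where 2.17% of 9980 transcripts were called lower and 2.43% higher. UTP18 had 117, 45.2, 112, 143 and 41.03 CPM at 0 h, 36.4, 48.5 and 71.6 CPM at 2 h, 73.6, 68.5, 36.01 and 21.003 CPM at 6 h and 60.2 and 80.4 CPM at 24 h. Within its own run each 2 h library lay below every untreated one. Across runs, the untreated library B of run 1 and that of run 3, which has no 2 h library, were in the range at 2 h. The fitted log2 fold change at 2 h was -1.07 ± 0.27 (adjusted p = 0.032), lost when any 1 of 5 libraries was left out (0.0573 to 0.124). NOL11 had -0.92 ± 0.21 (adjusted p = 0.0165), lost when any 1 of 4 libraries was left out (0.0572 to 0.0821). WDR12, with -1.06 ± 0.31 at 2 h (adjusted p = 0.0542), and RRN3, with 0.97 ± 0.38 (adjusted p = 0.135), had values of similar size without a call. RRN3 had 4.54, 1.70, 4.52, 3.88 and 12.97 CPM at 0 h, 3.60, 16.98 and 10.96 CPM at 2 h, 7.72, 4.15, 6.42 and 7.001 CPM at 6 h and 9.03 and 5.9996 CPM at 24 h. Across runs each treated time overlapped the untreated libraries. In run 2 the 2 h and 24 h libraries lay above the untreated ones, while in run 3 the 6 h libraries lay below theirs. At 6 and 24 h 0 genes were called in edgeR, where 2.24% and 1.41% of all were. At an unadjusted p under 0.05 there were 5 and 4, where 1613 and 1518 of 9980 transcripts passed. DESeq2 called 1 and 0 members, and its shares of all transcripts are not given here. The medians were -0.04, -0.19 and -0.16 at 2, 6 and 24 h, beside values of 0.01 or less in size over all transcripts, and 47 of 58 genes were below 0 at 6 h. Within runs at 6 h the median was -0.17 in run 2 and -0.21 in run 3.

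The difference between both regions was taken as promoter-proximal minus gene-body log2 CPM in each library. Its change was called in 0 genes by limma at 2, 6 and 24 h, where 1.15%, 0.401% and 0.271% of transcripts were called. At an unadjusted p under 0.05 in limma there were 13, 5 and 4 genes, where 1741, 1103 and 1191 of 9980 transcripts passed. The median change of this difference over the members was 0.06, 0.10 and 0.12. Standard errors near promoters were larger, at 0.25 for NOLC1 and 0.23 for DDX21 at 6 h on the log2 scale, where their gene-body errors were 0.07 and 0.07.

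**Figure D5:**
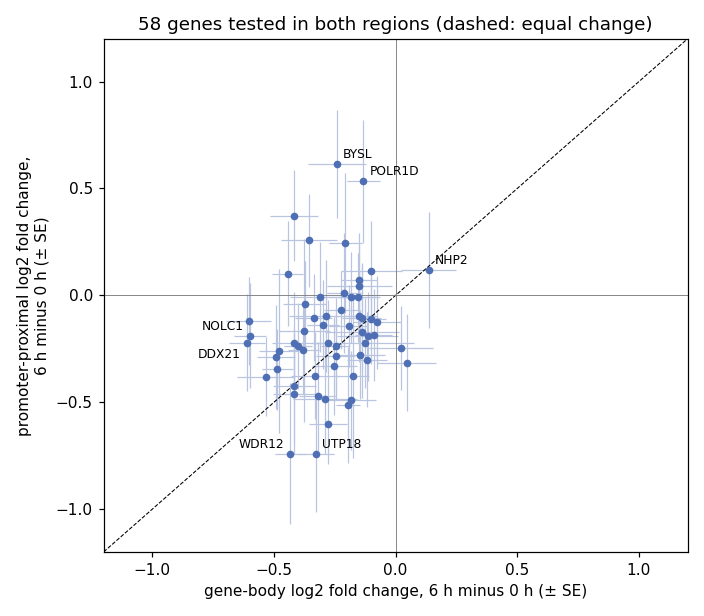
Promoter-proximal against gene-body log2 fold change at 6 h (± SE) for the 58 genes tested in both regions. Most points lie below 0 on both axes, with wider errors near promoters. UTP18 and WDR12 are lowest near promoters at -0.74, and BYSL and POLR1D highest at 0.61 and 0.53, none of them called there.

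Other genes of the same pathway, 145 listed from textbook roles of which 138 were measured, were tested in the same fit. Of the 138, 29 fell and 8 rose at 2 h, 40 fell and 4 rose at 6 h, and 25 fell and 2 rose at 24 h, with medians of -0.06, -0.13 and -0.12. Over all transcripts 18.9%, 13.4% and 9.08% fell, so the count at 2 h is close to that share, and 19.7%, 13.5% and 10.8% rose. At 6 h 18 of 42 other large subunit factors fell and 0 rose. NLE1 had -0.66 ± 0.08 and MDN1, the giant AAA ATPase that strips factors from the pre-60S particle, had -0.43 ± 0.05 (adjusted p = 8.82e-05 and 8.89e-05). Of 35 other small subunit factors 10 fell and 1 rose, with UTP14A, of the processome, at -0.39 and PNO1 at -0.35. Among 10 other snoRNP genes 4 fell, among them TCOF1 (-0.36), the treacle protein that works with RNA polymerase I and snoRNPs, and RUVBL1, an ATPase that helps snoRNPs assemble (-0.34). Of 16 genes of the exosome and other rRNA exonucleases 2 fell, EXOSC7 at -0.52 and SKIV2L2 at -0.32, and 1 rose. Of 8 other RNA polymerase I genes 1 fell, POLR1F at -0.67 ± 0.14 (adjusted p = 0.00459). Among 22 RNA polymerase III genes 5 fell and 2 rose, and among 5 subunits shared between polymerases 0 were called at 6 h (0 unadjusted).

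Calls were also counted by gene length. At the members' median length of 23.18 kb, 22 of 29 longer genes and 10 of 30 others fell at 6 h, where 18.1% of longer and 8.13% of other transcripts did. At 2 h the counts were 14 of 29 and 5 of 30 (29.4% and 7.4% of all), and at 24 h 14 of 29 and 4 of 30 (13.2% and 4.62%). The median log2 fold change at 6 h was -0.33 in the longer and -0.20 in the other members, beside -0.03 and 0.08 over all transcripts. Longer genes hold more reads, and Spearman's rho between length and the log2 fold change at 6 h was -0.36 over the 59 genes and -0.21 over all transcripts, as a description. The part of length and depth in the counts of calls was not tested.

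For gene bodies, the authors' deposited table called 20 of the 59 genes lower at 2 h (20.3% of all transcripts), 33 at 6 h (14.5%) and 20 at 24 h (10.6%), and it called 1, 0 and 0 higher (19.8%, 13.9% and 11.7%). In the authors' deposited table the medians were -0.10, -0.26 and -0.20, and near promoters it called 0 of the 59 at each time, where 0.611%, 0.854% and 0.287% of all were lower and 0.146%, 0.0485% and 0.0891% higher.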

How the data were processed

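Nuclear run-on RNA of tagged Kasumi-1 cells was sequenced in biological replicates, per the series' design text, and whether these were separate cultures is not stated further, so p-values measure the spread between these libraries. Trimming with Trimmomatic 0.32 and alignment with Bowtie2 2.2.2 are listed in the submitters' processing notes, which also list other tools by sample. For coordinates those notes list hg19. How reads were assigned to windows and strands was not given there. The names of the deposited tables carry the word prefiltered, and the rule of that filter was not given in those notes. Genes that are not listed may have been left out by it. The deposited tables hold read counts per transcript for 2 regions, with no normalization by the authors, and per the file headers also the authors' mean signal, their log2 fold changes with errors, the test statistic as a score, and p-values with adjusted p-values. The 84 deposited normalized columns, 14 in each of 6 tables, were not used.

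A quasi-likelihood model of the counts was fitted with edgeR 4.0.16 under R 4.3.3 (TMM scaling, default filter on low counts), with terms for time and run over all 14 libraries, with Benjamini-Hochberg adjustment over all transcripts (10304 in gene bodies, 9980 near promoters) and a threshold of 0.05. The run term was chosen because run and time are unbalanced. Levels are CPM scaled by TMM, so a change shared by all transcripts would not be seen. Promoter-proximal minus gene-body log2 differences (prior count 2) were tested with limma 3.58.1. Standard errors are the log2 fold change divided by the root of the test's F. Alternatives included DESeq2 1.42.0, its size factors, no run term, a threshold of 0.01, subsets of runs or times, a block for the letter in the column name, and omission of each library. Precision of single genes is limited by the counts per library, above all near promoters. The tests were also tested on simulated counts.

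The genes, role lists, companion lists and tests were chosen with earlier results of these data known. Values per library are given for 16 genes. They are, in each role list, the one with the smallest adjusted p at 6 h and the one highest or nearest to no change, and the 3 with the largest changes at each time and near promoters. Other members are given where their role list needs them. Companion genes are named by the 1 or 2 smallest adjusted p at 6 h.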

Additional observations from a re-analysis of the deposited data

Results flagged for a closer look

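In 6 of 64 groups of 4 or 5 libraries examined, 1 library lay far from the others (Dixon's gap over range). Chance gives about 1 in 20 where the libraries of a group are alike and the groups independent. These groups mix runs and share the same libraries, so that rate cannot be set against the 6. In gene bodies, NOL6 had 47.2 CPM in 6 h A of run 3, where the other 6 h libraries had 33.5 to 34.9 CPM. UBTF had 110 CPM in 0 h A of run 1, where the other untreated libraries had 148 to 156 CPM. In promoter-proximal regions, DDX18 had 13.1 CPM in 6 h A of run 3, against 5.39 to 6.17 CPM in the others of that time. NOLC1 had 302 CPM in 6 h B of run 3, where the others had 177 to 189 CPM, and WDR3 had 251 CPM in the same library, where the others had 199.6 to 207 CPM. RRN3 had 12.97 CPM in 0 h A of run 3, where the other untreated libraries had 1.70 to 4.54 CPM. Of these 6 values 5 belong to run 3 and 1 to run 1.

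The gene-body change at 2 h differed between run 1, with 1 library at 2 h, and run 2 in 16 genes (run-by-time term in edgeR, adjusted p under 0.05), a test added after seeing the data. This is close to the 28.3% of all transcripts that the same test called, and the lone 2 h library of run 1 is assumed to vary like the other groups. The log2 fold change in run 1 minus that in run 2 was negative for WDR36 (-0.62), NOL11 (-0.49), WDR75 (-0.48), WDR43 (-0.46), UTP18 (-0.38), BRIX1 (-0.62), GNL3 (-0.43), GNL2 (-0.39), GAR1 (-0.74), NOP58 (-0.53), NCL (-0.43), NPM1 (-0.38) and DDX21 (-0.38). It was positive for NOP2 (0.75), NOL6 (0.59) and PDCD11 (0.48).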

How the results depend on the processing

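No paired analysis was possible because the column names carry none of the replicate numbers of the sample labels, which concerns pairing by those numbers. With the letter within its run as a block, added after seeing the data although no source says what the letters pair, 15, 27 and 16 genes were lower at 2, 6 and 24 h (14.3%, 11.4% and 7.8% of all transcripts), 0 were higher at 2 h, and 2 were called near promoters at 2 h, 1 lower and 1 higher. The counts of genes lower in gene bodies stayed within 1.5 times of 32 at 6 h under every alternative run except without 6 h B of run 2 (21), while those at 2 and 24 h moved further. Where no share of all transcripts stands beside a count below, it is not given here, and the count shows only how calls moved. Without the run term 10 genes were lower and 0 higher at 2 h, and 0 were called near promoters at 2 h. At a threshold of 0.01, 11 were lower and 0 higher at 2 h, 10 were lower at 24 h, and 0 were called near promoters at 2 h. DESeq2 called 4 genes at 6 h against 2 h, 1 at 24 h against 2 h and 1 near promoters at 6 h. With only the 2 times compared, 9 were lower and 0 higher at 2 h, 1 was called near promoters at 2 h, 2 at 6 h against 2 h and 5 at 24 h against 2 h. With run 2 alone, 4 were higher at 2 h and 31 lower at 24 h, and 24, 11 and 1 were called at 6 h against 2 h, 24 h against 2 h and 24 h against 6 h. In that run 7, 1 and 5 were called near promoters at 2, 6 and 24 h, where 17.2%, 9.59% and 14.6% of all transcripts were, and 3, 1 and 1 for the difference between regions, where 7.33%, 2.13% and 6.43% were. Without both untreated libraries of run 1, 2 were higher at 2 h, 7 were called at 6 h against 2 h and 4 at 24 h against 2 h. With gene-body library factors 0 were called near promoters at 2 h. Run 3 left out, chosen after seeing the data, gave 17, 23 and 15 lower at 2, 6 and 24 h.

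With 1 library left out, the counts ranged from 10 to 19 lower and 0 to 2 higher at 2 h, 21 to 33 lower at 6 h, 4 to 24 lower at 24 h, 0 to 2 called at 6 h against 2 h, 0 to 1 at 24 h against 2 h, and 0 to 5 near promoters at 2 h. They were 0 in every such fit for genes higher at 6 or 24 h, at 24 h against 6 h, near promoters at 6 or 24 h, and for the difference between regions. Omission of a 24 h library leaves 1, which is then assumed to vary like the other times. No named gene changed direction in a called value. With DESeq2's size factors 19, 32 and 18 genes were lower at 2, 6 and 24 h. The cause of these differences was not tested.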
